A study of Mus musculus with 10 samples.

Results

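Ribosome biogenesis genes and the genes for subunits of RNA polymerase I were compared between 2 related mouse tumour cell lines, MC38.T4 (5 libraries) and its parent MC38 (5 libraries). The members were chosen by gene symbol and not by any measured value, though earlier results of these data were known. Of the rows, 44 carry a symbol of the Utp, Nop, Nol, Rrp or Polr1 series. A further 12 were listed by name, which gives 56 of the 54343 genes in the table. MC38.T4 descends from MC38 cells transfected with a human mesothelin plasmid (huMSLN.pcDNA3.1) and sorted as a clone, MC38.huMSLN.34, which then formed tumours in C57/BL6 mice. Tumour cells taken out after about 25 days went through 10 generations in culture, and the line was started from 1 low-mesothelin clone. MC38 is the parental line from a vendor, labelled wild type. Both lines were grown in the same medium, and per the labels MC38.T4 proliferated like its parent in culture and grew faster in mice. The labels call the cells colon cancer in one place and melanoma, as the tissue, in another.

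Ribosomes are made in the nucleolus. RNA polymerase I copies the ribosomal DNA into a long precursor RNA, small nucleolar ribonucleoproteins (snoRNPs) modify it, and a large assembly called the small-subunit (SSU) processome folds and cuts its first part. A further set of factors builds the large subunit around the rest. Growing tumour cells are known for high output of this pathway, and MYC is a known activator of many of its genes.

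The values are FPKM, fragments scaled to the length of the gene and to the depth of the library, so levels can be compared between genes per length. Sums of FPKM per library lay between 478019 and 484460 in MC38.T4 and between 442183 and 477015 in MC38, without overlap. The sources used here do not give read totals, and the spacing of single-read steps gave depths relative to MC38 replicate 1 of 0.874 to 1.14. MC38.T4 replicate 4 had the highest level of the nuclear RNA Malat1 (125 FPKM) and the lowest value of its line for 23 of the 54 tested members. MC38 replicate 1 had the lowest FPKM sum and the lowest value of its line for 25 of them. Markers of both labelled tissues were low in sum. The summed level of 10 epithelial and intestinal genes was 1.13 to 1.47 FPKM in MC38.T4 and 0.0567 to 0.146 FPKM in MC38. The intestinal factor Cdx2 was listed at 0 throughout. Most of the MC38.T4 sum was Cdh1 (0.908 to 1.10 FPKM, against 0.0084 to 0.0293 in MC38). The 7 melanocyte genes summed to 1.85 to 2.07 FPKM in MC38.T4 and 1.19 to 1.52 FPKM in MC38, with Tyr listed at 0. Here most of the MC38.T4 sum was Mitf (1.63 to 1.87 FPKM, against 0.641 to 0.988 in MC38), which was called higher. Mitf passed the filter for testing (FPKM of at least 1 in at least 5 libraries) only through MC38.T4, so no fall could be called. Leukocyte markers (7 genes) summed to at most 1.02 FPKM and endothelial markers (5 genes) to at most 1.03 FPKM in any library. Fibroblast markers (10 genes) summed to 352 to 358 FPKM in MC38.T4 and 34.8 to 37.9 FPKM in MC38. In MC38.T4 this sum was mostly Col3a1. Of the 10 genes 6 passed the filter and were called higher, against 43.1% of all tested genes. Col1a2, Pdgfrb and Acta2 passed it only through their MC38.T4 libraries, so for them no fall could be called. The remaining markers were below the filter, Thy1 at 0. The part of the fibroblast markers in the results was not tested. No label says that the 5 replicates were cultured separately, so p-values measure the spread between these libraries, which may be technical.

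Most ribosome biogenesis genes were lower in MC38.T4. A gene was tested where at least 5 of the 10 libraries reached an FPKM of 1, which 54 of the 56 members did. Of these 54, 35 fell and 13 rose at a limma adjusted p under 0.05, and 6 did not pass. The lines differed across the transcriptome, and the same test called 86.0% of all 11110 tested genes, 43.1% higher and 42.9% lower in MC38.T4. Against these shares, 88.9% of the members were called, 24.1% higher and 64.8% lower. The libraries of the lines did not overlap for 45 of 54 members (83.3%), against 77.4% of all tested genes. The median log2 difference (MC38.T4 minus MC38, from log2(FPKM + 1) values) was -0.25 over the members and 0.00077 over all tested genes. Changes of at least 2-fold, that is of 1 or more on this log2 scale, were found in 5 members. Bop1 alone rose by that much, 1 of 54, against 10.0% of all tested genes. Nol8, Utp23, Utp25 and Utp20 fell by that much, 4 of 54, a share near the 7.14% of all tested genes. Rrp15 (-0.99) and Polr1f (-0.98) fell just short of that limit, though their ratios of mean FPKM, MC38 over MC38.T4, were 2.02 and 2.06. Folds given for single genes are ratios of mean FPKM. A lower FPKM is a smaller share of the polyA RNA, and fewer cells expressing a gene and less RNA per cell cannot be told apart here.

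**Figure D1:**
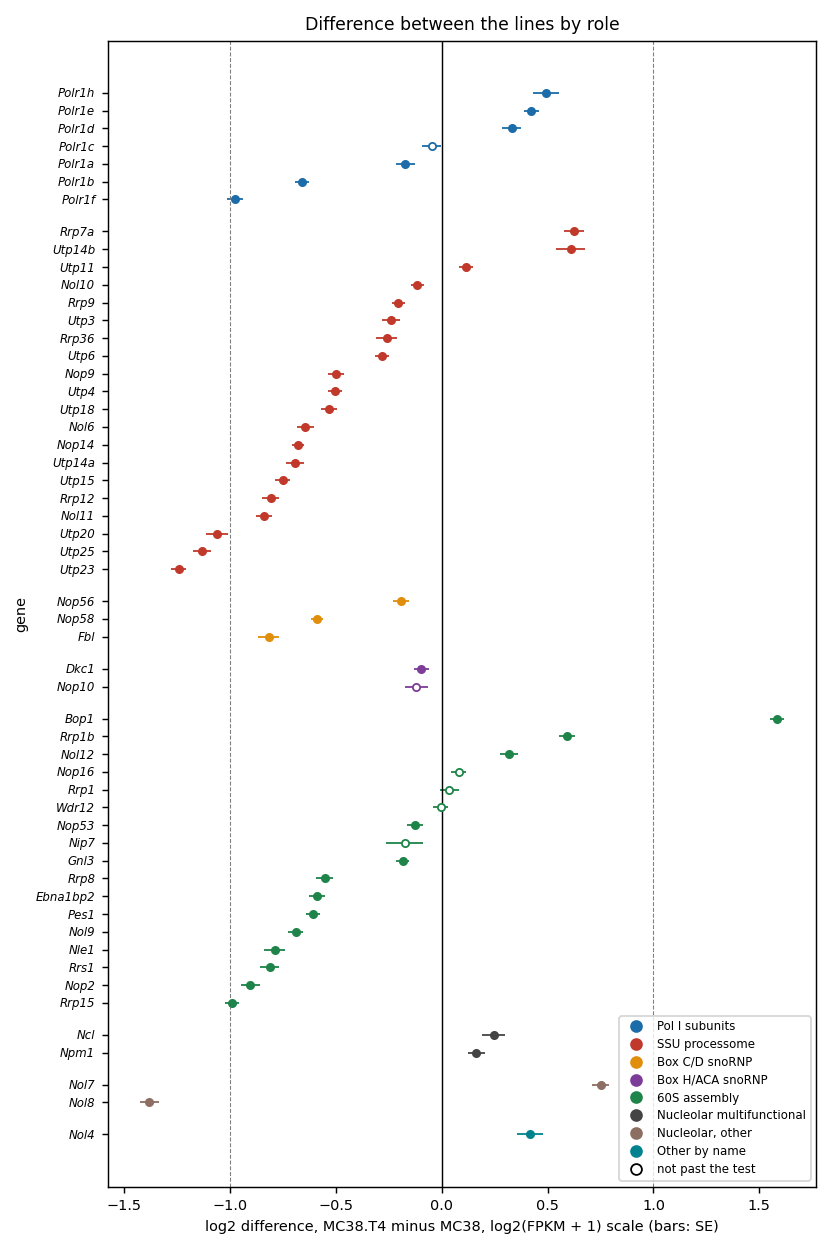
Log2 difference between MC38.T4 and MC38 (x axis, log2(FPKM + 1) scale, bars are the standard error) for the 54 tested members (y axis), grouped and coloured by role; open symbols did not pass the test and dashed lines mark 2-fold. SSU processome and box C/D genes lie mostly left of 0, Pol I subunits lie on both sides, and Bop1 stands alone beyond 2-fold on the right.

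The Pol I subunit genes split: Polr1h, Polr1e and Polr1d rose, Polr1f, Polr1b and Polr1a fell, and Polr1c did not pass, with a median log2 difference of -0.048. The share called in each direction, 42.9%, was near those of all tested genes (43.1% higher and 42.9% lower). Polr1f, which encodes the stalk subunit that contacts the initiation factor RRN3, had 10.8, 10.8, 11.2, 10.9 and 10.5 FPKM in MC38.T4, against 23.6, 22.0, 21.5, 23.3 and 21.3 FPKM in MC38 (replicates 1 to 5 of each line). It fell 2.06-fold (log2 difference -0.98, SE 0.038, limma adjusted p = 2.32e-12), with every MC38.T4 library far below every MC38 library. Polr1b encodes one of the pair of large subunits that form the active centre and had 15.4, 14.2, 14.0, 14.8 and 14.9 FPKM in MC38.T4, against 24.0, 23.5, 24.4, 23.2 and 23.8 FPKM in MC38. The libraries again did not overlap (log2 difference -0.66, SE 0.034, limma adjusted p = 7.14e-11). Polr1a, the gene of the largest, catalytic subunit, had 18.7, 16.2, 16.7, 16.6 and 17.2 FPKM in MC38.T4, against 20.6, 18.8, 20.0, 18.5 and 18.9 FPKM in MC38. Here the fall was small (log2 difference -0.17, SE 0.043, limma adjusted p = 0.00186) and the libraries overlapped through MC38.T4 replicate 1, which lay above 1 MC38 library.

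The rises were those of Polr1h, Polr1e and Polr1d. Polr1h encodes the subunit for RNA cleavage and had 26.1, 28.1, 27.4, 25.2 and 24.7 FPKM in MC38.T4, against 15.4, 19.2, 19.3, 18.2 and 20.2 FPKM in MC38 (log2 difference 0.49, SE 0.062, limma adjusted p = 2.57e-06). All MC38.T4 libraries lay above all MC38 libraries, and MC38 replicate 1 was the lowest of all 10. Polr1e, whose product dimerizes with another subunit to aid initiation, had 18.4, 18.1, 18.6, 18.8 and 18.3 FPKM in MC38.T4, against 12.8, 14.1, 13.2, 14.2 and 13.1 FPKM in MC38. The difference was 1.37-fold (log2 difference 0.42, SE 0.036, limma adjusted p = 2.8e-08). Polr1d encodes a subunit that Pol I shares with Pol III and had 155, 157, 156, 140.1 and 146 FPKM in MC38.T4, against 108, 127, 124, 123 and 117 FPKM in MC38 (log2 difference 0.33, SE 0.047, limma adjusted p = 8.62e-06). It was the most abundant subunit mRNA per length in both lines. Its partner in both polymerases, Polr1c, had 42.6, 44.8, 44.1, 47.1 and 46.3 FPKM in MC38.T4, against 43.0, 50.9, 46.9, 44.0 and 48.1 FPKM in MC38. These values overlapped, and the 95% interval of the log2 difference ran from -0.15 to 0.050 (limma adjusted p = 0.337).

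The ratios of subunit mRNAs differed between the lines. Polr1f over Polr1e was 0.589 ± 0.013 in MC38.T4 and 1.66 ± 0.11 in MC38 (SD, n = 5 each), and Polr1b over Polr1a was 0.861 ± 0.028 in MC38.T4 and 1.23 ± 0.040 in MC38. These pairs were picked after the values were seen and carry no test. The partner of Polr1e is listed in the table under its older symbol Cd3eap and falls outside the symbol pattern; it averaged 12 ± 1.2 FPKM in MC38.T4 and 14.6 ± 0.78 FPKM in MC38 (log2 difference -0.27, SE 0.061, limma adjusted p = 0.000789).

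**Figure D2:**
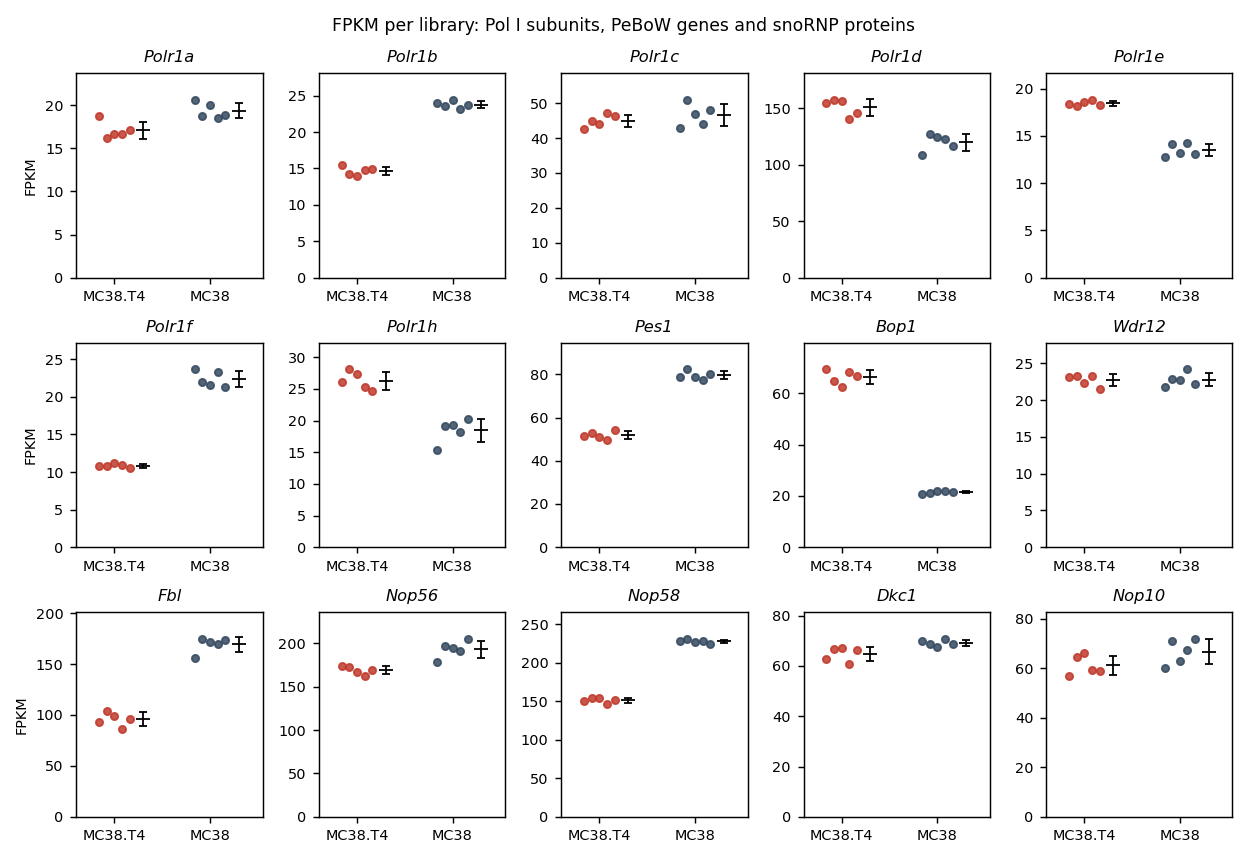
FPKM (y axes, from 0) in each library for the 7 Pol I subunits, the 3 genes of the PeBoW complex and 5 snoRNP protein genes; points are libraries (MC38.T4 left, MC38 right) and the bar beside them is the mean with its SD. Bop1 is the only panel in which MC38.T4 lies far above MC38, while Pes1, Fbl, Nop58, Polr1b and Polr1f lie clearly lower in MC38.T4.

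Of the 20 genes placed with the SSU processome and small-subunit maturation, 17 fell and 3 rose, and in all 20 the libraries of the lines did not overlap. Their median log2 difference was -0.52. The shares were 85% lower and 15% higher, against 42.9% and 43.1% of all tested genes, of which 77.4% did not overlap. An exact permutation test of each of the 20 genes gave p = 0.00794 (two-sided, n = 5 per line), the smallest that this number of libraries allows. Any gene without overlap gets this p, so the test adds nothing to the separation of the libraries.

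The largest falls were those of Utp23, Utp25 and Utp20. Utp23, a PIN-domain protein gene, had 14.9, 14.3, 14.0, 13.9 and 15.4 FPKM in MC38.T4, against 35.3, 36.6, 34.8, 35.7 and 35.5 FPKM in MC38. It fell 2.46-fold (log2 difference -1.24, SE 0.035, limma adjusted p = 6.07e-14). Utp25, known from zebrafish as digestive organ expansion factor, had 4.16, 3.93, 4.25, 4.31 and 4.41 FPKM in MC38.T4, against 10.9, 9.82, 10.9, 10.4 and 10.1 FPKM in MC38 (log2 difference -1.13, SE 0.043, limma adjusted p = 1.56e-12). Both genes showed a spread within a line that was small beside the gap between lines. Utp20, which encodes a long scaffold protein, had 15.7, 14.0, 13.3, 13.3 and 14.1 FPKM in MC38.T4, against 33.5, 28.1, 30.8, 30.0 and 30.0 FPKM in MC38 (log2 difference -1.06, SE 0.052, limma adjusted p = 3.02e-11). Its highest MC38.T4 library was still well under its lowest MC38 library.

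The members of UtpA and UtpB, subcomplexes that bind the precursor RNA early, fell to different extents. Among those of UtpA, which also aids transcription by Pol I, Nol11 averaged 33.9 ± 2.0 FPKM in MC38.T4 and 61.3 ± 0.83 FPKM in MC38 (log2 difference -0.84), Utp15 17.3 ± 0.61 FPKM in MC38.T4 and 29.8 ± 0.97 FPKM in MC38 (log2 difference -0.75) and Utp4, the gene for cirhin, 49.8 ± 1.6 FPKM in MC38.T4 and 71.0 ± 2.6 FPKM in MC38 (log2 difference -0.50). Of UtpB, Utp18 averaged 42.5 ± 1.9 FPKM in MC38.T4 and 61.9 ± 2.4 FPKM in MC38 (log2 difference -0.53) and Utp6 33.03 ± 1.1 FPKM in MC38.T4 and 40.4 ± 1.1 FPKM in MC38 (log2 difference -0.28). Among the listed UtpA and UtpB genes that are not members, Heatr1, Pwp2, Wdr3 and Wdr36 fell, with log2 differences of -1.09, -1.58, -0.44 and -0.22. Wdr43 (64.7 FPKM in MC38.T4, against 58.3 in MC38), Wdr75 (41.1 FPKM in MC38.T4, against 38.5 in MC38) and Tbl3 (8.70 FPKM in MC38.T4, against 6.52 in MC38) rose, with log2 differences of 0.15, 0.093 and 0.37, so 9 of the 12 listed genes of these subcomplexes fell and 3 rose. The UtpC genes parted: Nol6 averaged 19.9 ± 1.0 FPKM in MC38.T4 and 31.6 ± 1.2 FPKM in MC38, a fall, whereas Rrp7a rose. Further falls were those of Rrp12 (7.98 FPKM in MC38.T4, against 14.7 in MC38), Utp14a, whose product activates a processome helicase (11.5 FPKM in MC38.T4, against 19.1 in MC38), Nop14 (39.5 FPKM in MC38.T4, against 63.8 in MC38) and Nop9 (10.2 FPKM in MC38.T4, against 14.8 in MC38). The smallest falls were those of Rrp36, Utp3, Rrp9 and Nol10, with log2 differences of -0.26, -0.24, -0.20 and -0.12. Over all 20 genes the limma adjusted p was at most 0.00611. Parp3 overlaps Rrp9 on the other strand (33.8 FPKM in MC38.T4, against 13.0 in MC38), and 11 members in all have a tested gene over them on that strand.

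The exceptions were Rrp7a, Utp14b and Utp11. Rrp7a had 27.4, 27.2, 26.2, 25.7 and 26.4 FPKM in MC38.T4, against 15.2, 18.4, 17.0, 15.98 and 17.9 FPKM in MC38 (log2 difference 0.63, SE 0.047, limma adjusted p = 5.46e-09). The annotation places Serhl over it on the other strand, and Serhl averaged 20.3 FPKM in MC38.T4 and 1.97 FPKM in MC38; whether the authors counted by strand is not given, so reads of the pair may not be told apart. Utp14b, an intronless relative of Utp14a that is known for its use in the male germ line, had 4.80, 4.79, 4.81, 4.79 and 4.69 FPKM in MC38.T4, against 3.51, 2.85, 2.49, 2.89 and 2.32 FPKM in MC38 (log2 difference 0.61, SE 0.068, limma adjusted p = 5.8e-07). It lies within Acsl3 on the same strand, and Acsl3, an acyl-CoA synthetase gene, averaged 54.3 ± 2.0 FPKM in MC38.T4 and 20.4 ± 0.85 FPKM in MC38. How the authors' counting split reads between them is not known, so the value of Utp14b is uncertain. Utp14a and Utp14b coding sequences were 77.9% identical over their aligned bases. Utp14b over Utp14a was 0.418 ± 0.011 in MC38.T4 and 0.148 ± 0.033 in MC38 (SD, n = 5 each). Utp11 had 78.3, 74.6, 80.5, 74.0 and 73.9 FPKM in MC38.T4, against 68.6, 71.5, 68.4, 72.6 and 70.7 FPKM in MC38 (log2 difference 0.11, SE 0.034, limma adjusted p = 0.00611), a rise of 1.08-fold that no longer passed after rescaling to TPM (log2 difference 0.067, limma adjusted p = 0.0941, in a range of 0.000460 to 0.0941 over 19 alternatives).

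**Figure D3:**
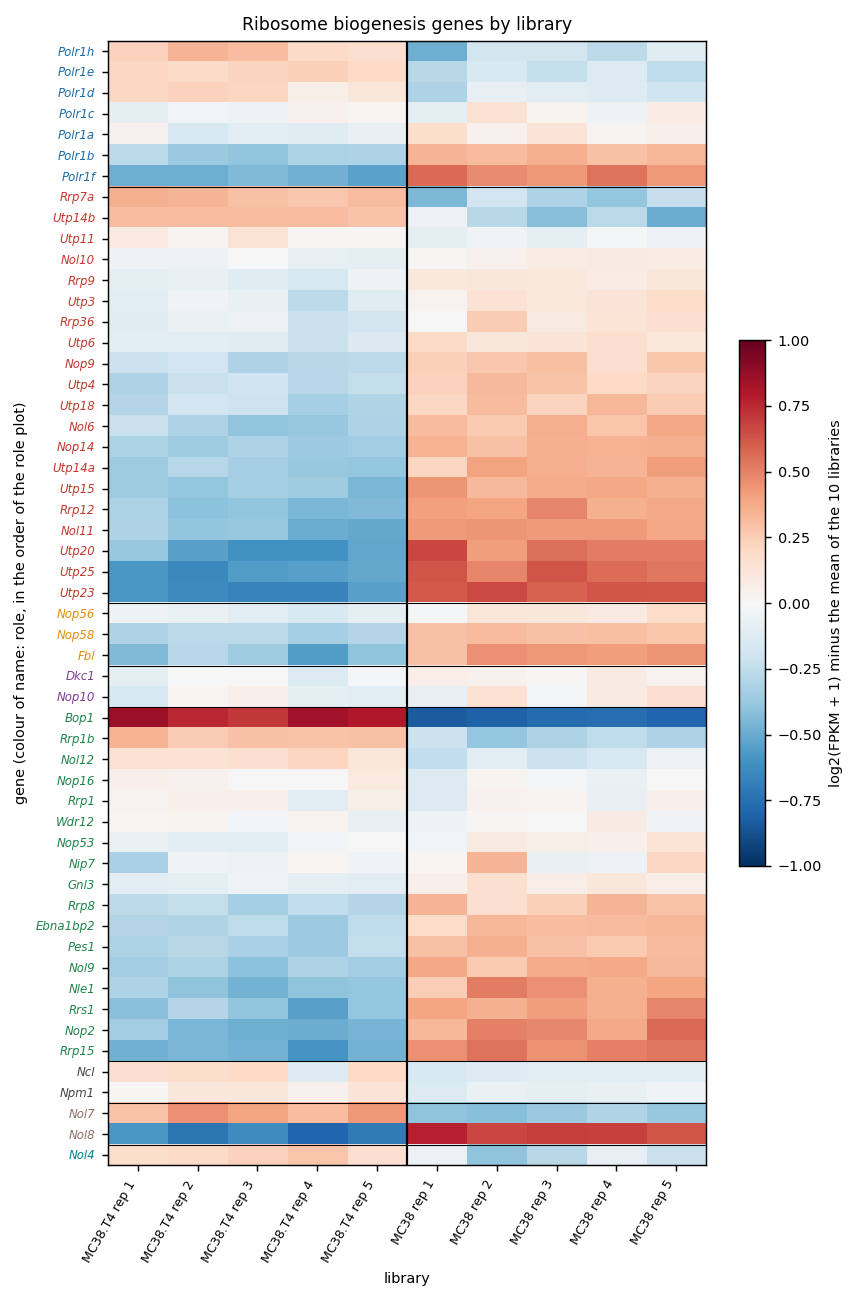
Each tested member (rows, by role) in each library (columns, MC38.T4 left of MC38), as log2(FPKM + 1) minus the mean of the 10 libraries; red is above and blue below that mean, on a scale that ends at 1 in each direction. The colour changes at the line between the groups for 45 members whose libraries do not overlap, most of them blue in MC38.T4, and Bop1 shows the strongest red there.

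All 3 box C/D snoRNP protein genes among the members fell, against 42.9% of all tested genes. The remaining core protein gene, Snu13, which is not a member, averaged 132 ± 2.8 FPKM in MC38.T4 and 139.9 ± 8.5 FPKM in MC38 and did not pass (log2 difference -0.079, SE 0.040, limma adjusted p = 0.0819). These proteins carry out methylation of ribosomal RNA at sites chosen by guide snoRNAs. Fbl, the methyltransferase fibrillarin, had 93.3, 104, 99.1, 86.2 and 96.1 FPKM in MC38.T4, against 156, 175, 172, 170.2 and 173 FPKM in MC38 and fell 1.77-fold (log2 difference -0.82, SE 0.048, limma adjusted p = 3.14e-10). Nop58 had 150.0, 154, 154, 147 and 151 FPKM in MC38.T4, against 228, 231, 227, 229 and 225 FPKM in MC38 (log2 difference -0.59, SE 0.029, limma adjusted p = 2.97e-11). For both genes the lines were far apart. Its scaffold partner Nop56 had 174, 172, 167, 162 and 169 FPKM in MC38.T4, against 178, 197, 195, 192 and 205 FPKM in MC38, a smaller fall (log2 difference -0.19, SE 0.039, limma adjusted p = 0.000267). The libraries of Nop56 did not overlap either, though they came close. Fbl over Nop56 was 0.567 ± 0.033 in MC38.T4 and 0.876 ± 0.018 in MC38 (SD, n = 5 each, without a test). Nop58 was the most abundant of the 3 mRNAs per length in MC38, and Nop56 was in MC38.T4.

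Box H/ACA proteins convert uridine to pseudouridine, and of the 2 members among them Dkc1 fell slightly and Nop10 did not pass. Dkc1, the pseudouridine synthase dyskerin, had 62.9, 66.6, 67.0, 60.7 and 66.3 FPKM in MC38.T4, against 70.1, 68.8, 67.5, 70.7 and 68.6 FPKM in MC38, a difference of -0.10 on the log2 scale (SE 0.034, limma adjusted p = 0.0172). The lines did not overlap but nearly touched. The call was lost without the 2 libraries that stand apart (log2 difference -0.069, limma adjusted p = 0.0533, in a range of 0.00275 to 0.0533 over 19 alternatives). Nop10 averaged 61.3 ± 3.9 FPKM in MC38.T4 and 66.8 ± 5.1 FPKM in MC38 and did not pass (limma adjusted p = 0.0513, unadjusted 95% interval -0.24 to -0.0036). Nop10 lay so near the threshold that 9 of 19 alternatives called it lower, with limma adjusted p from 0.00389 to 0.131. The other core proteins of this particle, which are not members, fell without overlap of libraries: Nhp2 averaged 109.7 ± 6.3 FPKM in MC38.T4 and 153 ± 9.1 FPKM in MC38 (log2 difference -0.48, SE 0.047, limma adjusted p = 1.54e-07) and Gar1 37.5 ± 5.0 FPKM in MC38.T4 and 52.8 ± 4.0 FPKM in MC38 (log2 difference -0.49, SE 0.088, limma adjusted p = 0.000229).

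Among 17 genes for assembly of the large subunit, 10 fell, 3 rose and 4 did not pass, with a median log2 difference of -0.18. The shares were 58.8% lower and 17.6% higher, against 42.9% and 43.1% of all tested genes. In either direction 76.5% were called, fewer than the 86.0% of all tested genes. The genes of the PeBoW complex, which is needed to process the large-subunit RNA and is built from Pes1, Bop1 and Wdr12, did not move together. Bop1 had 69.3, 64.7, 62.4, 68.4 and 66.7 FPKM in MC38.T4, against 20.9, 21.2, 21.8, 22.0 and 21.5 FPKM in MC38. It rose 3.09-fold (log2 difference 1.58, SE 0.035, limma adjusted p = 4.85e-15), more than any other member. Mroh1 overlaps Bop1 on the other strand and was also higher (15.2 FPKM in MC38.T4, against 6.22 in MC38), and as the strand setting of the counting is not given, reads of the pair may not be told apart. Pes1 had 51.5, 52.7, 51.1, 49.7 and 54.2 FPKM in MC38.T4, against 78.8, 82.2, 78.9, 77.2 and 80.0 FPKM in MC38 and fell (log2 difference -0.61, SE 0.032, limma adjusted p = 8.82e-11). Wdr12 had 23.1, 23.3, 22.3, 23.3 and 21.5 FPKM in MC38.T4, against 21.8, 22.9, 22.7, 24.2 and 22.2 FPKM in MC38. These overlapped throughout, with a 95% interval of -0.083 to 0.074 for the log2 difference (limma adjusted p = 0.910). Bop1 over Pes1 was 1.28 ± 0.074 in MC38.T4 and 0.270 ± 0.010 in MC38, and Bop1 over Wdr12 was 2.92 ± 0.14 in MC38.T4 and 0.943 ± 0.026 in MC38 (SD, n = 5 each, without a test). In level, Bop1 stood 10th of the 56 members in MC38.T4 and 41st in MC38.

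The falls of this group were led by Rrp15, Nop2 and Rrs1. Rrp15 had 28.4, 29.0, 28.6, 26.3 and 28.6 FPKM in MC38.T4, against 55.6, 58.8, 55.2, 57.2 and 58.1 FPKM in MC38 (log2 difference -0.99, SE 0.034, limma adjusted p = 6.75e-13). Nop2, a methyltransferase of large-subunit RNA, had 34.8, 32.1, 31.5, 31.2 and 31.9 FPKM in MC38.T4, against 56.3, 63.4, 62.5, 58.3 and 66.3 FPKM in MC38 (log2 difference -0.90, SE 0.046, limma adjusted p = 4.8e-11). Both were close to 2-fold lower in MC38.T4, with no overlap of libraries. Rrs1, which helps to bring in the small ribonucleoprotein that joins the large subunit, had 41.8, 45.7, 42.4, 38.2 and 42.6 FPKM in MC38.T4, against 74.2, 72.1, 75.3, 72.5 and 79.2 FPKM in MC38 (log2 difference -0.81, SE 0.044, limma adjusted p = 1.01e-10). Nle1, a partner of a remodelling ATPase, had 9.44, 8.78, 8.34, 8.79 and 8.88 FPKM in MC38.T4, against 14.3, 17.5, 16.7, 15.6 and 16.01 FPKM in MC38 (log2 difference -0.79, SE 0.049, limma adjusted p = 6.02e-10). In neither gene did the libraries overlap. Ebna1bp2 had 41.3, 41.1, 42.4, 39.4 and 42.5 FPKM in MC38.T4, against 57.8, 64.2, 63.4, 63.6 and 64.5 FPKM in MC38 (log2 difference -0.59, SE 0.037, limma adjusted p = 6.27e-10). Gnl3, the GTP-binding protein nucleostemin, had 112, 113, 117, 112 and 112 FPKM in MC38.T4, against 125, 135, 126, 130.4 and 126 FPKM in MC38 and fell less (log2 difference -0.18, SE 0.032, limma adjusted p = 6.29e-05). For both, every MC38.T4 library lay below every MC38 library. Nol9, an RNA kinase of spacer processing, fell to 19.5 FPKM in MC38.T4, against 32.1 in MC38, Rrp8, a nucleolar methyltransferase, to 16.7 FPKM in MC38.T4, against 25.0 in MC38 and Nop53 to 25.8 FPKM in MC38.T4, against 28.2 in MC38, the last with overlap between libraries.

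Beside Bop1, Rrp1b and Nol12 rose. Rrp1b had 14.5, 13.6, 14.0, 13.9 and 14.0 FPKM in MC38.T4, against 9.50, 8.32, 8.87, 9.23 and 8.85 FPKM in MC38 (log2 difference 0.59, SE 0.039, limma adjusted p = 1.1e-09). Its paralog Rrp1 had 72.4 to 81.4 FPKM in MC38.T4 and 70.8 to 80.7 FPKM in MC38 and did not pass (95% interval -0.059 to 0.13, limma adjusted p = 0.452). Rrp1b was higher in every MC38.T4 library, while the values of Rrp1 overlapped. Nol12, an RNA-binding nucleolar protein gene, had 11.8, 11.7, 11.9, 12.4 and 11.5 FPKM in MC38.T4, against 8.71, 9.67, 8.91, 9.28 and 10.0 FPKM in MC38 (log2 difference 0.32, SE 0.041, limma adjusted p = 3.34e-06), without overlap. Nop16 averaged 61.9 ± 1.7 FPKM in MC38.T4 and 58.6 ± 2.6 FPKM in MC38 (unadjusted 95% interval 0.0025 to 0.16, limma adjusted p = 0.0511) and was called higher in 5 of 19 alternatives (limma adjusted p from 0.0145 to 0.358). Nip7 had 38.8, 47.7, 47.0, 49.5 and 47.8 FPKM in MC38.T4, against 49.7, 62.3, 46.5, 46.8 and 56.7 FPKM in MC38, the widest spread of this group (95% interval -0.37 to 0.018, limma adjusted p = 0.0821), and was called lower in 5 of 19 alternatives (limma adjusted p from 0.0191 to 0.177).

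The genes of the multifunctional nucleolar proteins Npm1 and Ncl both rose, against 43.1% of all tested genes. Npm1, the nucleolar chaperone nucleophosmin, had 1510.2, 1622, 1627, 1544 and 1640.2 FPKM in MC38.T4, against 1362, 1429.5, 1407, 1424 and 1466 FPKM in MC38 (log2 difference 0.16, SE 0.039, limma adjusted p = 0.00111). It was the most abundant member in both lines, and the lines did not overlap. Its call was lost with quantile normalization (log2 difference 0.023, limma adjusted p = 0.629, in a range of 0.000691 to 0.629 over 19 alternatives). Ncl, the RNA-binding protein nucleolin, had 216, 217, 221, 176 and 221 FPKM in MC38.T4, against 173, 175, 178, 179 and 177 FPKM in MC38 (log2 difference 0.25, SE 0.054, limma adjusted p = 0.000666). MC38.T4 replicate 4 lay within the range of MC38, and the other 4 MC38.T4 libraries lay above it; without replicate 4 the log2 difference was 0.31. All 56 members together took 0.813% ± 0.023 of FPKM in MC38.T4 and 0.901% ± 0.0086 in MC38 (SD, n = 5 each). Leaving out Npm1, the shares were 0.483% ± 0.015 in MC38.T4 and 0.597% ± 0.0059 in MC38.

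A pair of nucleolar protein genes that were not placed in the groups above moved far apart. Nol8 had 13.6, 12.1, 13.1, 11.6 and 12.3 FPKM in MC38.T4, against 36.4, 33.7, 34.1, 34.0 and 32.8 FPKM in MC38. It fell 2.73-fold (log2 difference -1.38, SE 0.044, limma adjusted p = 2.53e-13), more than any other member. Nol7 had 48.8, 55.1, 52.7, 49.7 and 54.1 FPKM in MC38.T4, against 30.0, 29.5, 30.6, 32.1 and 30.5 FPKM in MC38 and rose (log2 difference 0.75, SE 0.039, limma adjusted p = 7.63e-11). Neither gene had overlapping libraries. Ranbp9 overlaps Nol7 on the other strand and went the opposite way (39.2 FPKM in MC38.T4 and 51.9 FPKM in MC38). A further 3 members are placed here by the name pattern alone. Nol4 had 2.63, 2.66, 2.76, 2.90 and 2.61 FPKM in MC38.T4, against 2.08, 1.43, 1.65, 2.03 and 1.75 FPKM in MC38 (log2 difference 0.42, SE 0.063, limma adjusted p = 1.54e-05). Nol3, an inhibitor of cell death, and Nol4l were below the filter, with 0.0952 to 0.165 FPKM in MC38.T4 and 0.0278 to 0.135 FPKM in MC38 for Nol3, and 0.574 to 0.664 FPKM in MC38.T4 and 0.894 to 1.24 FPKM in MC38 for Nol4l.

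Other listed genes of the pathway mostly fell too. Of 114 tested genes in 7 lists, 75 fell, 23 rose and 16 did not pass, with a median log2 difference of -0.35. The shares were 65.8% lower and 20.2% higher, against 42.9% and 43.1% of all tested genes. The share called in either direction was 86.0%, the same as over all tested genes, so only the split by direction differed. The lists were written with earlier results of these data known. Among 26 other SSU processome genes 19 fell and 5 rose. Esf1 averaged 22.8 ± 0.95 FPKM in MC38.T4 and 80.5 ± 1.9 FPKM in MC38 (log2 difference -1.78, SE 0.034, limma adjusted p = 1.38e-15) and Pwp2, of UtpB, 12.9 ± 0.52 FPKM in MC38.T4 and 40.4 ± 0.50 FPKM in MC38, while Emg1, a methyltransferase, rose to 83.5 FPKM in MC38.T4, against 56.3 in MC38 and the helicase gene Ddx49 to 22.0 FPKM in MC38.T4, against 15.3 in MC38. Of 7 genes of late small-subunit maturation 5 fell and 1 rose: Pno1 stood at 59.5 FPKM in MC38.T4, against 134 in MC38, Tsr1 at 49.9 FPKM in MC38.T4, against 102 in MC38 and the kinase gene Riok1 rose to 21.4 FPKM in MC38.T4, against 11.2 in MC38. In the large-subunit list 29 of 44 fell and 6 rose. Tma16 averaged 7.10 ± 0.26 FPKM in MC38.T4 and 40.04 ± 1.0 FPKM in MC38 (log2 difference -2.34, SE 0.035, limma adjusted p = 1.01e-16) and Zfp622, a late joining factor, 29.9 ± 1.1 FPKM in MC38.T4 and 77.4 ± 4.5 FPKM in MC38; Gnl3l, a relative of Gnl3, rose to 13.6 FPKM in MC38.T4, against 7.62 in MC38 and Rsl1d1 to 207 FPKM in MC38.T4, against 125 in MC38.

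Genes for Pol I initiation and termination fell in 7 of 8 cases, against 42.9% of all tested genes, with a median log2 difference of -0.60. Taf1a, of the promoter selectivity factor, stood at 6.71 FPKM in MC38.T4, against 15.9 in MC38 and Taf1c at 2.68 FPKM in MC38.T4, against 5.73 in MC38, while Tbp, which serves all 3 nuclear polymerases, rose to 20.4 FPKM in MC38.T4, against 14.6 in MC38. Of 5 subunits shared with Pol II and Pol III, 4 fell, led by Polr2k (43.7 FPKM in MC38.T4, against 118 in MC38) and Polr2h (35.9 FPKM in MC38.T4, against 56.9 in MC38), and Polr2f rose (89.7 FPKM in MC38.T4, against 67.8 in MC38). Of 11 other snoRNP proteins and assembly factors 5 fell and 3 rose, among them Naf1, an assembly factor of H/ACA particles (22.3 FPKM in MC38.T4, against 46.1 in MC38), Gar1, Shq1 (13.5 FPKM in MC38.T4, against 9.77 in MC38) and Ruvbl2 (78.2 FPKM in MC38.T4, against 60.01 in MC38). The share of falls in this list, 45.5%, was near the 42.9% of all tested genes. The RNA exosome, which trims precursor RNA, was evenly split: 6 of 13 tested genes rose and 6 fell, with a median of 0.046. These shares, 46.2% each, were also near those of all tested genes (43.1% higher and 42.9% lower). Exosc5 rose to 18.4 FPKM in MC38.T4, against 6.19 in MC38 and Exosc7 to 28.9 FPKM in MC38.T4, against 21.3 in MC38, and Exosc4 fell to 15.1 FPKM in MC38.T4, against 31.9 in MC38 and Exosc9 to 26.5 FPKM in MC38.T4, against 45.9 in MC38.

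**Figure D4:**
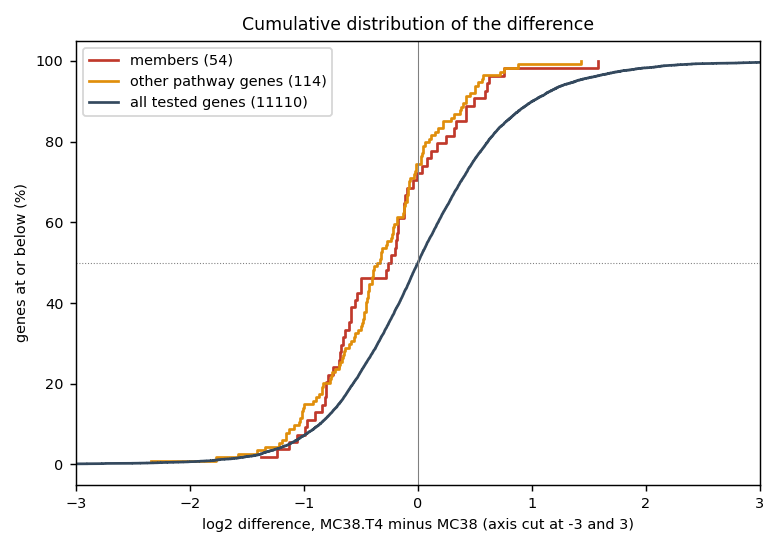
Share of genes (y axis, %) at or below each log2 difference between MC38.T4 and MC38 (x axis) for the 54 tested members, the 114 other tested pathway genes and all 11110 tested genes. The curves of the members and of the other pathway genes lie left of that of all genes, with medians of -0.25, -0.35 and 0.00077.

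Promoter sequences were examined for the E-box that MYC with its partner MAX is known to bind. The motif is CACGTG, which reads the same on both strands, and the window ran from 250 bases before to 50 bases after the annotated start (RefSeq, GRCm38.p6). Of 43 tested members with a promoter in the table, 10 (23.3%) held the motif, as did 12.1% of 8677 tested genes and 8.09% of all 27025 genes with a promoter there. It was found in 8 of 28 members that fell (28.6%), 2 of 9 that rose (22.2%) and 0 of 6 that did not pass. Utp25 held it 3 times. In 6 members it lay upstream of the start, and these windows are printed here 5′ to 3′ with the motif in capitals, the first 4 from genes that fell and the others from genes that rose.
Nol11 (chr11:107189392-107189451, - strand): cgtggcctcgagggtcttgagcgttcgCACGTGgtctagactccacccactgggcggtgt
Nop2 (chr6:125131796-125131855, + strand): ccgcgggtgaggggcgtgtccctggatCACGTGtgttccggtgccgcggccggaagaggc
Utp18 (chr11:93885767-93885813, - strand): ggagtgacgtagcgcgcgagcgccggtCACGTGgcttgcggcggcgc
Utp25 (chr1:193130196-193130233, - strand): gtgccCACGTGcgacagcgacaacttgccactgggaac
Rrp7a (chr15:83122977-83123036, - strand): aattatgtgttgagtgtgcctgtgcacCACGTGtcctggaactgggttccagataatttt
Utp14b (chr1:78658350-78658409, + strand): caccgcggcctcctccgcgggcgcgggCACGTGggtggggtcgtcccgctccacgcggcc

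The motif began 43 bases before the start in Nol11, 60 in Nop2, 20 in Utp18, 245 in Utp25, 208 in Rrp7a and 63 in Utp14b, so both near and far positions occurred. Myc had 54.4, 49.9, 53.4, 73.6 and 57.1 FPKM in MC38.T4, against 283, 293, 309.8, 310.4 and 311 FPKM in MC38 (log2 difference -2.38, SE 0.085, limma adjusted p = 2.75e-11). Mycl had 0.0714 to 0.119 FPKM in MC38.T4 and 6.42 to 7.12 FPKM in MC38. Mycn stayed under 1 FPKM in every library and was below the filter. Its values went the other way, with 0.387 to 0.532 FPKM in MC38.T4 and 0 to 0.011 FPKM in MC38. The level of Myc moved with most members between the lines, and its part in their differences was not tested.

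Position on the chromosome was compared through the 5 tested neighbours on each side of a member. Of all tested genes 43.1% rose and 42.9% fell. Around Bop1, on chromosome 15, 8 of 10 neighbours rose and none fell, with a median log2 difference of 0.34. Rrp7a, which rose, had the same counts around it (median 0.41). Nop53 fell where 6 of 10 neighbours rose and 0 fell (median 0.64). Next to Bop1 lie Mroh1, the gene that overlaps it, and Hsf1, the heat shock factor gene (47.5 FPKM in MC38.T4, against 24.4 in MC38). Around Utp20, on chromosome 10, 7 of 10 neighbours fell and 1 rose (median -0.74). The other members past 2-fold did not follow their surroundings: Nol8, on chromosome 13, fell where 7 of 10 neighbours rose and 1 fell (median 0.30), Utp23, on chromosome 15, where 6 rose and 3 fell (median 0.23), and Utp25, on chromosome 1, where 4 rose and 4 fell (median 0.10). Over all 54 members the neighbours' median had the member's own sign in 32, and it lay between -0.74 and 0.76. No such count for other genes is set beside it. The part of a shared locus in these differences was not tested.

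**Figure D5:**
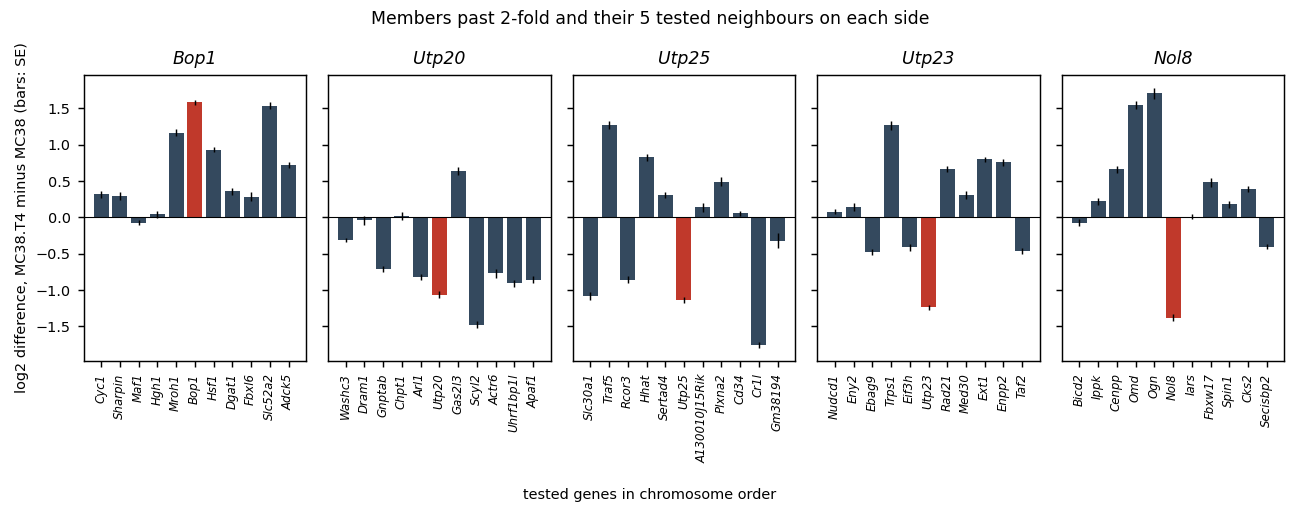
Log2 difference between MC38.T4 and MC38 (y axis, bars on the columns are the standard error) for the 5 members past 2-fold on this scale (red) and the 5 tested genes on each side in chromosome order (dark blue). Bop1 rises among neighbours of which 8 of 10 rose, Utp20 falls among 7 that fell, and Nol8, Utp23 and Utp25 fall among mixed or rising neighbours.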

How the data were processed

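Cultured MC38.T4 and MC38 cells (5 libraries each) were sequenced as polyA-selected, strand-specific libraries. The authors deposited 1 table of FPKM with a gene symbol per row, and all its columns were mapped by library names in the labels. The submitters' processing notes name GRCm39 and DESeq2, without version or role. The aligner, counter, annotation and filters are not named in these sources. Depth in reads is unknown; no counting interval was given and no count test was run.

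The 11110 genes that reached 1 FPKM in 5 or more libraries were fitted with a pseudocount of 1 on the log2 scale, so changes of low genes are understated, using limma 3.58.1 in R 4.3.3 (trend and robust moderation, a line term only, two-sided, Benjamini-Hochberg over all tested genes, threshold 0.05). Single genes also had an exact permutation test. Intervals are limma's 95% intervals. Python 3.11.15 with pandas 2.3.3, NumPy 2.4.6, Biopython 1.88 and matplotlib 3.10.9 did the rest. The code was first tested on simulated data.

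The members, roles, lists and tests were chosen with earlier results of these data known. Every member may be named; library values are given for Pol I subunits, the 12 members listed by symbol, and up to 3 rises and 3 falls of each role; of other lists, at most 2 rises and 2 falls. Nhp2, Snu13, Heatr1, Wdr3, Wdr36, Wdr43, Wdr75 and Tbl3 are named beyond this rule, chosen after their values were seen, to complete their complexes. Neighbours, overlaps and snoRNAs come from GENCODE M21 (GRCm38, another build than the authors'), in which all 56 members were matched, 3 under an older symbol; 44 had a RefSeq promoter. The alternatives were another pseudocount, filters, scalings, moderation, a replicate block and leaving out libraries.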

Additional observations from a re-analysis of the deposited data

Results flagged for a closer look

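In 10 of 108 groups of 5 libraries (54 members in each line) 1 library lay far from the other 4 by Dixon's criterion, 9.26% of the groups; chance flags about 1 in 20 groups. MC38.T4 replicate 4 held 3 of these: Ncl at 176 FPKM (216 to 221 in the other 4), Rrp15 at 26.3 FPKM (28.4 to 29.0) and Rrp1 at 72.4 FPKM (80.1 to 81.4). MC38.T4 replicate 1 held 2, Nop2 at 34.8 FPKM (31.2 to 32.1) and Nip7 at 38.8 FPKM (47.0 to 49.5). In MC38.T4 replicate 5, Utp14b stood at 4.69 FPKM (4.79 to 4.81), and in MC38.T4 replicate 3, Gnl3 stood at 117 FPKM (112 to 113). MC38 replicate 1 held 2, Fbl at 156 FPKM (170.2 to 175) and Ebna1bp2 at 57.8 FPKM (63.4 to 64.5), and in MC38 replicate 2, Nop14 stood at 61.9 FPKM (64.0 to 64.5). Of these 10 genes, the libraries of the lines overlapped in Ncl, Rrp1 and Nip7.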

How the results depend on the processing

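Under 19 alternatives, 996 values of single members kept their direction and their side of the threshold, 20 newly passed it, 3 no longer passed it and 5 changed sign. The sign changes were those of genes near 0: Rrp1 was at -0.011 on the log2 scale after rescaling to TPM, and Wdr12 was at 0.014 with quantile normalization and between -0.019 and 0.016 without single replicates, above 0 without MC38.T4 replicate 3 or 5 or MC38 replicate 4. Over all alternatives 12 to 14 members rose and 35 to 38 fell. Rescaling to TPM gave a member median of -0.30, 12 rises and 38 falls. Scaling moved the median of all tested genes by less than 0.05. Both box H/ACA genes fell with equal medians, a minimum FPKM of 5, the replicate block and TPM (2 in each), and 1 to 2 without single replicates. With quantile normalization 1 of Ncl and Npm1 rose. The causes were not tested. Leaving out single replicates gave 13 to 14 rises, 35 to 37 falls, 4 to 5 falls of at least 2-fold and medians of -0.27 to -0.22; without both MC38.T4 replicate 4 and MC38 replicate 1 there were 13 rises and 35 falls. At least 2-fold falls numbered 6 with a pseudocount of 0.1, equal medians or TPM. Replicate numbers did not pair the lines (same-number correlations from -0.129 to 0.142); with the replicate block 13 members rose and 37 fell. Depth in reads is unknown, so counting error of low genes could not be given.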

Other observations

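Annotated small nucleolar RNAs (snoRNAs), known as guides for the modification of ribosomal RNA, lie within 6 members. Of these hosts Nop58, Nop56, Gnl3, Nop53 and Dkc1 fell and Ncl rose. The falls of Gnl3, Nop53 and Dkc1 were small (log2 differences of -0.18, -0.13 and -0.10). For comparison, 64.8% of the tested members and 42.9% of all tested genes fell. Nop56 holds 5 annotated snoRNAs, Nop58 holds 4, and Gnl3 and Ncl hold 3 each. The polyA libraries do not measure the snoRNAs themselves.

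Mean level over the lines and the log2 difference were weakly related across the 54 tested members (Spearman's rho 0.095, across genes, which are not independent replicates). The order of the members by level was similar in both lines, with a rho of 0.87.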
